A study of Rattus norvegicus with 12 samples.

Results

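Kcna5, Apba2, Scgb2b2, Ifit2 and LOC103694669 were taken as genes whose response to silica in the rat lung differed between day 14 and day 28. In the rows of the study's list that could be read, 1 probe is named for each. Whether unnamed probes of the array also read them is not known. Their probes are 5 of the 51255 on the array, and the genes are 5 of the 1099 that could be named. They were chosen from the 1278 tested probes that the study's list of differentially expressed genes names, as those with the smallest interaction p, the p of the difference between the silica effects at both days. That list had itself been selected on the arrays of day 28. Their differences between silica and saline at either day, and between those differences, are therefore given as a description with no test.

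Lung RNA of 12 male Wistar rats was hybridized to single-colour Agilent arrays, 1 array for each rat, in 4 groups of 3. The model groups had received silicon dioxide into the trachea (50 mg/mL, 1 mL per rat, titled 50 mg/kg), and the control groups 1 mL of saline (titled 0 mg/kg). The time point labels put 3 model and 3 control rats at day 14 and the same numbers at day 28, while the protocol text on the day 14 arrays also speaks of 28 days. The study's methods describe the day 28 rats only, and state that their lungs were picked from a larger set for their histology. The arrays lay on 2 slides. Slide 1 held the 3 model rats of day 28 and control rat 1 of day 28, and slide 2 held the other 8 rats. Day, treatment and slide are therefore partly mixed. Of all probes, between 60.5% and 69.5% were well above background on an array, with the 3 model arrays of day 28 between 60.5% and 61.1%. Of 25 marker probes of lung and blood cell types, 24 were well above background on all 12 arrays.

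Silica particles are taken up by lung macrophages, which become inflamed and die, and the injured tissue scars over weeks. Type I interferon is part of that inflammation, and it switches on antiviral genes such as Ifit2. The other genes belong to different systems, and the lists below set each beside genes of its own system. In whole lung, fewer cells of a type and less RNA per cell cannot be told apart.

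The array reads each transcript through a 60-base probe, and these sequences fix what was measured. They are printed 5′ to 3′ with no part marked, in full for Kcna5 and Apba2 and as the first 30 bases for Ifit2 and LOC103694669.
Kcna5: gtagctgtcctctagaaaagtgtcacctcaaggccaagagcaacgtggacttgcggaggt
Apba2: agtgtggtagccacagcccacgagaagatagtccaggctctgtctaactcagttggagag
Ifit2: atacttgctgattataaactcccaagggaa
LOC103694669: agggggacataaatggggaatttataagat
The probes of Kcna5 and Apba2 are 53.3% G and C, that of Ifit2 36.7% and that of LOC103694669 35%, against a median of 43.3% over all probes. No other probe of the array shares a run of 20 bases with any of them. The study's list places Kcna5 on chromosome 4 and Apba2, Scgb2b2 and Ifit2 on chromosome 1.

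Of the 34097 probes tested over all 12 arrays, 0 (0%) passed an adjusted p of 0.05 for the interaction with limma and Benjamini-Hochberg adjustment, while 3386 had an unadjusted p under 0.05. The label of these genes was therefore not borne out by the adjusted test. Their unadjusted p values, which chose them, were 1.9e-05 for LOC103694669, 6.5e-05 for Kcna5, 7.9e-05 for Apba2, 2.2e-04 for Scgb2b2 and 3.3e-04 for Ifit2, and their adjusted p lay between 0.092 and 0.22. Among all tested probes they held ranks 6, 12, 15, 37 and 48. Just outside the choice stood both probes of LOC100913013, with unadjusted p of 3.5e-04 and 4.9e-04 and differences of 1.83 and 2.58 on the log2 scale, and the olfactory receptor gene Olr1347, with a p of 5.8e-04 and a difference of -1.30. The count depended on 1 rat. Without control rat 1 of day 28, the only control on slide 1, 269 probes passed, among them Ifit2, Kcna5, Apba2 and LOC103694669 but not Scgb2b2, which is again a description, since this contrast chose them. Without model rat 1 of day 14, 23 probes passed and none of the 5 did.

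**Figure D1:**
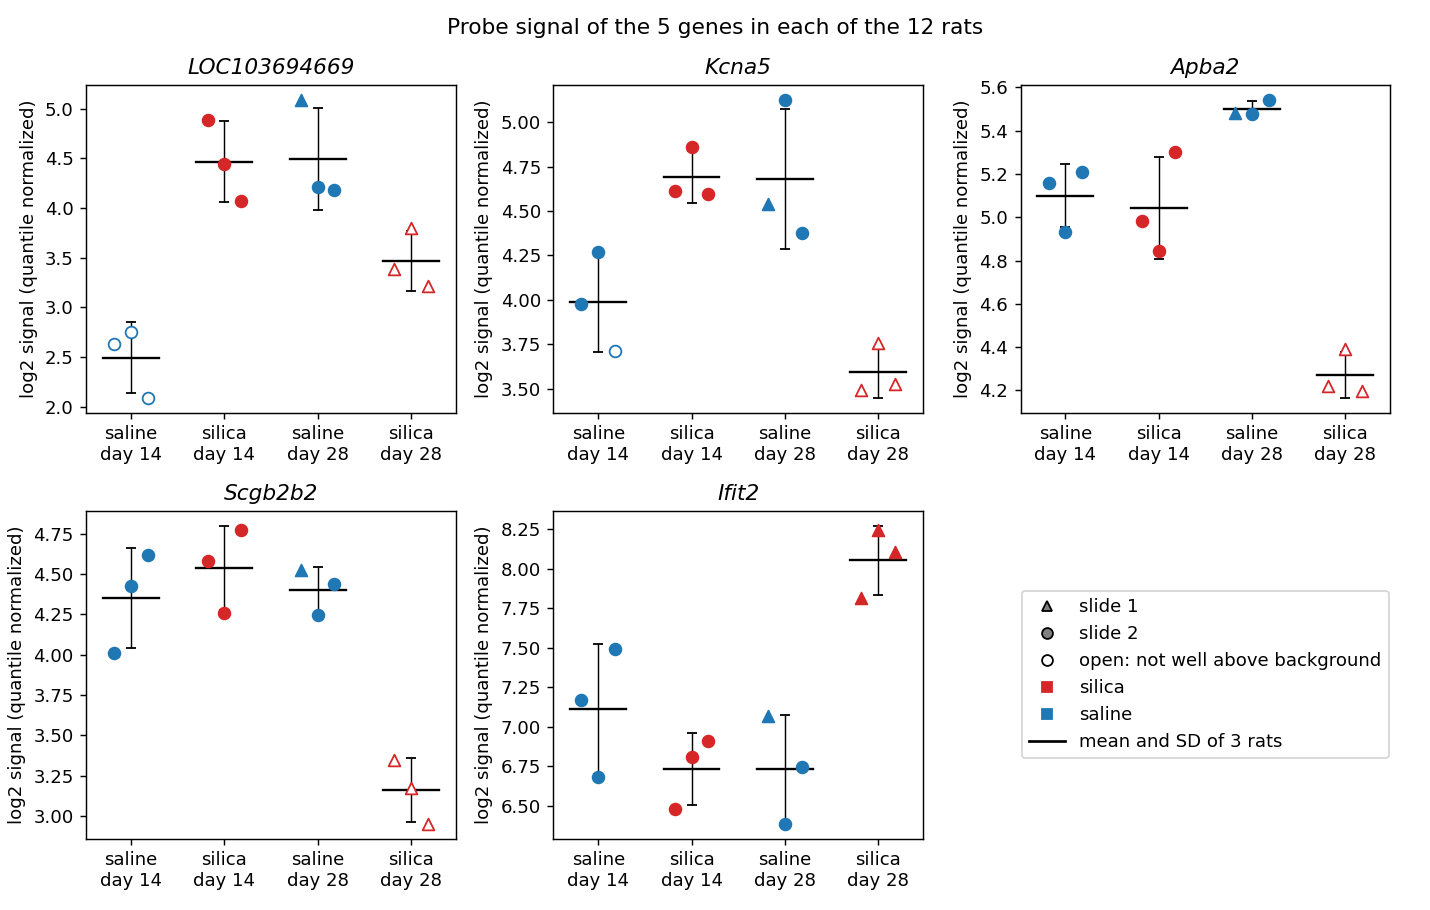
The quantile normalized log2 signal of each gene's probe is plotted for each of the 12 rats, with the mean and SD of each group of 3. Triangles are arrays of slide 1 and circles those of slide 2, and open symbols are signals not well above background. For Apba2, Scgb2b2, Kcna5 and LOC103694669 all 3 model rats of day 28 are open symbols, while Ifit2 is highest in those rats.

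Ifit2 is an antiviral protein that interferon induces, and it binds RNA and restrains translation. Its probe was well above background on all 12 arrays. Its log2 signal at day 28 was 7.81, 8.24 and 8.11 in the model rats and 7.07, 6.39 and 6.75 in the control rats. At day 14 it was 6.48, 6.81 and 6.91 in the model rats and 7.17, 6.68 and 7.49 in the control rats. The model rats of day 28 thus lay above all 9 others, and the other 3 groups overlapped. The silica minus saline difference was 1.32 (SE 0.23, 2.50-fold) at day 28 and -0.38 (SE 0.23) at day 14 on the log2 scale. Most of the contrast between days lay in the model rats, which were 1.32 higher on day 28 than on day 14, while the control rats moved by -0.38. Control rat 1 of day 28, on slide 1, was 0.50 above the mean of the 2 control rats of that day on slide 2. Within slide 1 the silica difference of day 28 was 0.98.

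The other interferon-induced genes named by the study's list were 13, and all had been selected at day 28. At day 28, 12 of them rose and none fell, where of all tested probes 9.74% were called, 4.74% as higher and 5% as lower. With the normexp background 7 rose and none fell. At day 14, 3 of the 13 rose and none fell, where 5.64% of all tested probes were called, 2.87% as higher and 2.77% as lower. The 3 were Ubd, a ubiquitin-like protein, by 3.12, Il18bp, which binds and blocks interleukin 18, by 2.16, and Cd274, the checkpoint ligand PD-L1, by 1.39 on the log2 scale (limma adjusted p of 0.013, 0.0075 and 9.7e-04). These 3 calls were made under all 19 alternatives. The median difference of the 13 was 2.02 at day 28 and 0.69 at day 14, against -0.024 and -0.010 over all tested probes.

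The 5 smallest values at day 14 were those of Slfn2, Slfn1, Oas3, Dhx58 and Mb21d1, genes of antiviral defence and nucleic acid sensing. Slfn2 stood at 0.04 there against 1.18 at day 28, Slfn1 at 0.10 against 1.32, and the 2′-5′-oligoadenylate synthetase Oas3 at 0.11 against 1.20. The RNA sensor homologue Dhx58 stood at 0.19 against 1.06, and the DNA sensor Mb21d1 (cGAS) at 0.23 against 2.13. The probe of Mb21d1 was well above background in 1 control and 2 model rats of day 14 and in 2 control rats of day 28. Both of its differences thus take in signals near background. Usp18, which trims ISG15 from proteins, stood at 0.70 against 2.10. The probe of the chemokine gene Cxcl10 was not well above background in any control rat, which leaves a rise of at least 4.62-fold at day 28. At day 14 its measured value was 1.67, with an adjusted p of 0.13. None of the 13 passed the adjusted test of the interaction, which had a median of 1.13 and lay above 0 in 12 of them. Ifit2 was the only gene of the list with a value below 0 at day 14.

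**Figure D2:**
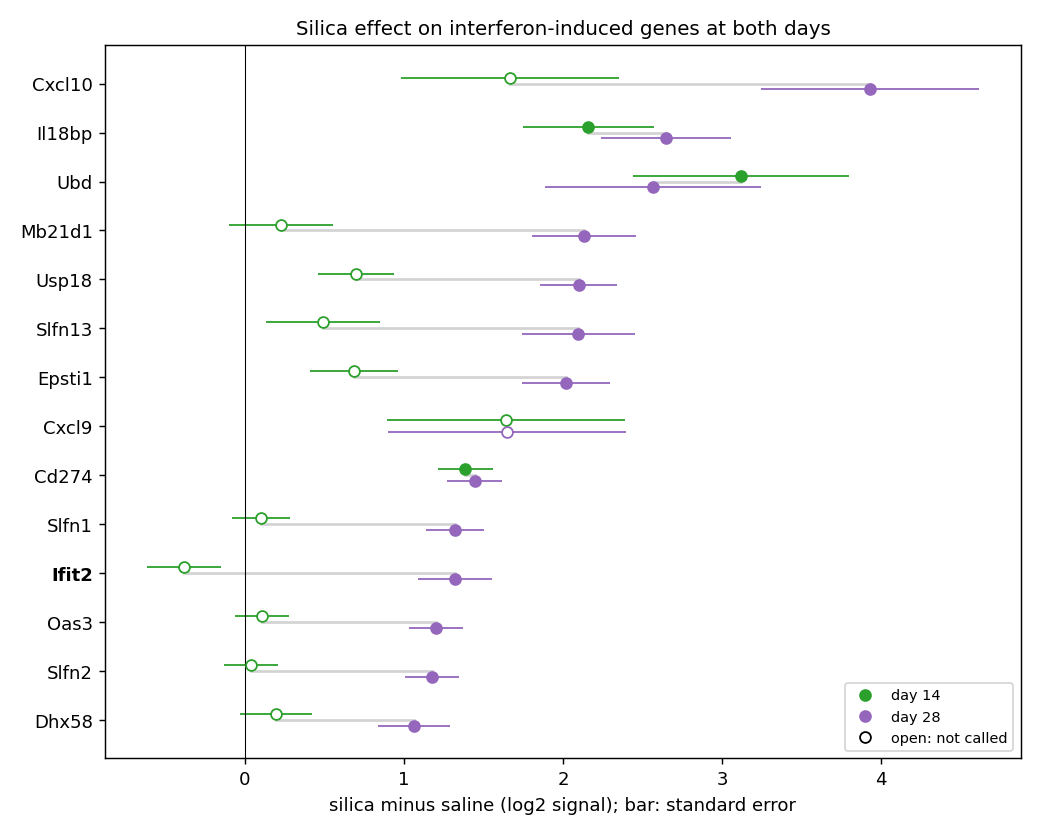
The silica minus saline difference in log2 signal, with its standard error, is plotted at day 14 and day 28 for Ifit2 and the 13 other interferon-induced genes. Filled points passed an adjusted p of 0.05 and a fold change of 2. Ubd, Il18bp and Cd274 are filled at both days, and Ifit2 alone lies below 0 at day 14.

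Rat by rat, Ifit2 and the mean of the rest of its list were in different orders in the model rats of day 14. In the control rats of that day both were in the same order. The mean log2 signal of the 13 genes was 8.58 in model rat 1 of day 14 and 7.54 and 7.49 in the other 2, against 8.26 to 8.56 in the model rats of day 28 and 6.36 to 7.09 in the control rats of both days. By this mean, model rat 1 of day 14 was as high as the day 28 model rats, while it had the lowest Ifit2 signal of its group. That was not so of each gene. For Mb21d1 the highest model rat of day 14 stood at 4.49 and the lowest of day 28 at 5.79, and for Slfn1 at 6.02 and 6.30. For Ubd the highest model rat of day 14 stood at 9.38, above the highest of day 28 at 7.56. Of the 8 interferon sensors and regulators, all 8 rose at day 28, where they had been selected and where 4.74% of all tested probes were called higher. With the normexp background 4 of the 8 rose there. At day 14, 3 of the 8 rose, against 2.87% of all tested probes, the regulators Irf4 by 1.03 and Irf5 by 1.13 and the adaptor Tmem173 (STING) by 1.61. These calls were made under 15, 17 and 19 of 19 alternatives. The 3 macrophage markers averaged 9.69 to 10.4 in the model rats of day 14, 10.3 to 10.6 in those of day 28 and 6.87 to 8.03 in the control rats. Among them Msr1 was well above background on only 7 of 12 arrays, with control means of 2.93 at day 14 and 3.11 at day 28. The control averages thus take in signals near background. The 3 T cell marker probes averaged 7.40 to 8.73 and 8.35 to 8.59 in the model rats of day 14 and day 28, and 6.21 to 6.98 in the control rats. These averages were higher in the model rats of both days, and their part in the values of Ifit2 was not tested.

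Kcna5 encodes the voltage-gated potassium channel Kv1.5, which helps to set the resting potential of arterial smooth muscle, in the lung among other organs. Its log2 signal was 4.61, 4.86 and 4.60 in the model rats of day 14 and 3.98, 4.27 and 3.71 in the control rats of that day. At day 28 it was 3.49, 3.76 and 3.53 in the model rats and 4.54, 5.13 and 4.37 in the control rats. The model rats were above the controls at day 14 and below them at day 28, without overlap at either day. The difference was 0.70 (SE 0.20) at day 14 and -1.09 (SE 0.20) at day 28. From day 14 to day 28 the mean of the model rats moved by -1.1 as measured, at least 1.25-fold, and that of the control rats by 0.69. The probe was dim, at 9.78 to 38.9 intensity units before normalization, and was not well above background in any model rat of day 28 or in control rat 3 of day 14. At day 28 it was hence at least 1.24-fold higher in the control than in the model rats, against 2.13-fold as measured. Each such bound sets the brighter mean against the lowest signal that counted as well above background on the dim arrays.

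The study's list named 15 probes of 12 other potassium channel genes, and these were selected at day 28. There 5 rose and 10 fell, where 4.74% of all tested probes were called higher and 5% lower. With the normexp background 2 rose and 1 fell at day 28, and fewer probes of the whole array were called there, too. At day 14, 4 of the 15 rose and 2 fell, against 2.87% and 2.77% of all tested probes. Both probes of Kcnn4, the calcium-activated channel of immune cells, rose at both days, by 2.23 and 1.91 at day 14 and by 3.02 and 2.62 at day 28. Kcnk13 rose at day 14 by 1.69, a call made under 7 of 19 alternatives, and so did 1 of 2 probes of the channel-interacting protein Kcnip4, by 1.07. Both were not well above background in the control rats of day 14, which bounds the rise at 2.03-fold and 1.59-fold or more. The inward rectifier Kcnj4 fell at day 14, with a difference of -1.60, and so did 1 of 2 probes of the acid-sensitive channel Kcnk3, at -1.1. The call was made under 15 of 19 alternatives for Kcnip4, 17 for Kcnj4 and 13 for Kcnk3. Of the 15 probes, 1 had opposite signs at both days, that of the stretch-sensitive channel Kcnk2, at 0.22 and -1.34. Kcnb2 and Kcnma1 stood at -0.13 and -0.03 at day 14 and at -1.67 and -1.50 at day 28. At day 28 they were not well above background in the model rats, and the control rats were at least 1.45-fold and 1.44-fold higher. At day 14 the probe of Kcnma1 was well above background in only 1 control rat and 1 model rat, so its value there is near background. None of the 15 passed the adjusted test of the interaction. Over all tested probes 27.7% had opposite signs at both days.

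**Figure D3:**
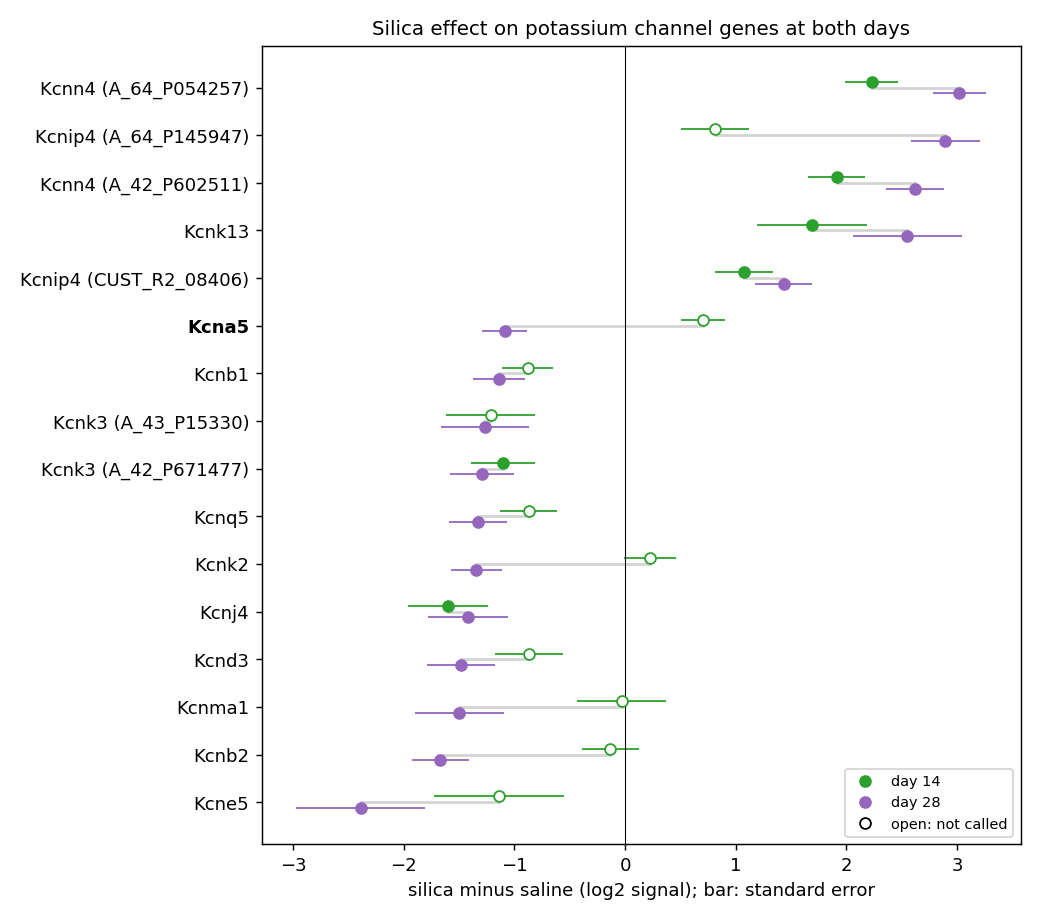
The silica minus saline difference in log2 signal, with its standard error, is plotted at day 14 and day 28 for Kcna5 and the 15 other potassium channel probes. Filled points passed an adjusted p of 0.05 and a fold change of 2. Kcna5 and Kcnk2 lie above 0 at day 14 and below 0 at day 28.

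Of 9 smooth muscle and pericyte genes, all 9 fell at day 28, where they had been selected and where 5% of all tested probes were called lower. With the normexp background 5 of the 9 were called lower there. Fewer were called, too, with slide as a block, which rests at day 28 on 1 control rat. At day 14, 2 fell and 7 were not called, against 2.77% of all tested probes called lower, and the 2 were Lims2 and Synm with differences of -1.44 and -1.17. All 9 lay below 0 at day 14, from -1.44 to -0.65 with a median of -0.90. Cald1, Higd1b, Notch3, Pdlim3 and Kank2 had an adjusted p under 0.05 there and missed only the fold change of 2. Their mean signal was 7.68 to 8.52 in the model rats of day 14 and 7.66 to 8.29 in those of day 28, against 9.06 to 9.46 in the control rats. The part of these genes in the values of Kcna5 was not tested.

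Apba2 encodes an adaptor protein, also called Mint2, that binds the amyloid precursor protein and takes part in vesicle traffic at nerve endings. Its log2 signal at day 28 was 4.22, 4.39 and 4.20 in the model rats and 5.48, 5.48 and 5.54 in the control rats. At day 14 it was 4.98, 4.84 and 5.30 in the model rats and 5.16, 4.93 and 5.21 in the control rats. The groups of day 14 overlapped and the model rats of day 28 lay below all others. The difference was -1.23 (SE 0.14) at day 28 and -0.06 (SE 0.14) at day 14. From day 14 to day 28 the control rats moved by 0.40, without overlap, and the model rats by -0.77 as measured, at least 1.59-fold. Both moves thus entered the contrast between days. The probe was not well above background in the model rats of day 28. The control rats were hence at least 2.18-fold higher there, against 2.34-fold as measured, which was the highest bound of the 4 dim probes. The control rat on slide 1 differed from the mean of the other 2 by -0.027, and the silica difference within slide 1 was -1.21.

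Apba1, the close relative Mint1, went the other way. Both of its probes rose at both days, by 1.06 and 1.22 at day 28 and by 1.27 and 1.18 at day 14 (limma adjusted p of 0.0097 and 0.023 at day 14). The day 14 call was made under 18 of 19 alternatives for the first probe and 15 for the second. With the normexp background neither passed the fold change of 2 at day 14, with values of 0.49 and 0.68. No probe of this list, Apba2 left out, was called at either day with that background. Of the other genes of this list, Mapt, the microtubule protein tau, fell at day 28 and day 14, with differences of -2.80 and -2.66, and the presenilin gene Psen2 stood at 1.07 and 1.19 and was not called. The day 14 call of Mapt was made under 18 of 19 alternatives. The probe of Mapt, too, was not well above background in any model rat, and its control rats were at least 1.64-fold higher at day 28 and 1.89-fold at day 14.

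Scgb2b2 encodes a secretoglobin, one of a family of small proteins secreted by airway and gland epithelium. Its log2 signal was 3.35, 3.18 and 2.95 in the model rats of day 28 and 4.52, 4.24 and 4.44 in the control rats of that day. At day 14 it was 4.58, 4.26 and 4.78 in the model rats and 4.01, 4.43 and 4.62 in the control rats. The model rats of day 28 stood alone, below the other 9, which overlapped. The difference was -1.24 (SE 0.19) at day 28 and 0.19 (SE 0.19) at day 14. The control rats moved by 0.05 from day 14 to day 28 and the model rats by -1.38 as measured. In the model rats of day 28 the probe was not well above background, and the controls were at least 1.02-fold higher, against 2.37-fold as measured.

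Of 10 other genes of airway secretory and club cells, 3 rose and 5 fell at day 28, where they had been selected and where 4.74% of all tested probes were called higher and 5% lower. Fewer were called there with slide as a block, which rests at day 28 on 1 control rat. At day 14, 2 rose and 2 fell, against 2.87% and 2.77% of all tested probes. Bpifb1 and the lactoperoxidase gene Lpo, both of host defence in the airway, rose by 3.84 and 2.51, and Sec14l3 and the retinal dehydrogenase Aldh1a1 fell, with differences of -1.96 and -1.53. The call was made under 17 of 19 alternatives for Bpifb1, 19 for Lpo, 14 for Sec14l3 and 17 for Aldh1a1. The cytochrome P450 genes Cyp2f4 and Cyp2a3 stood at -1.21 and -0.98 at day 14 and at -2.44 and -3.51 at day 28, with the probe of Cyp2a3 not well above background in the model rats of day 28 and at least 4.5-fold higher in the controls. None of the 10 passed the adjusted test of the interaction. The 2 club cell markers averaged 7.17 to 9.42 in the model rats of day 14, 7.78 to 8.08 in those of day 28 and 9.49 to 10.5 in the control rats. Of these markers, Cyp2f4 and Cyp4b1, only Cyp2f4 was called, and that at day 28 alone. Their part in the values of Scgb2b2 was not tested.

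LOC103694669 is annotated as similar to a Y-linked testis-specific protein. Its probe was dim, at 3.29 to 31.4 intensity units. Its log2 signal was 2.63, 2.76 and 2.09 in the control rats of day 14 and 4.88, 4.44 and 4.07 in the model rats of that day. At day 28 it was 5.09, 4.21 and 4.18 in the control rats and 3.39, 3.80 and 3.21 in the model rats. Model and control rats were in opposite order at both days, without overlap. The difference was 1.97 (SE 0.30) at day 14 and -1.03 (SE 0.30) at day 28. From day 14 to day 28 the control rats moved by 2.0 and the model rats by -1.0 as measured, and the bounds of these moves were only 1.70-fold and 1.07-fold, so their order is not set. The probe was not well above background in any control rat of day 14 or any model rat of day 28. The model rats of day 14 were hence at least 1.66-fold above their controls, against 3.92-fold as measured, and the control rats of day 28 at least 1.09-fold above the model rats, against 2.04-fold. Its control value at day 28 was highest in the rat on slide 1, by 0.89 over the mean of the other 2.

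The signal that counts as well above background differed between the arrays. Its lowest normalized log2 value was 4.33 to 4.41 on the 3 model arrays of day 28, 4.14 on control array 1 of day 28, also on slide 1, and 3.56 to 4.02 on the 8 arrays of slide 2. Over all 51255 probes, 273 were not well above background on all 3 model arrays of day 28 while they were on the other 9 arrays, and Apba2 and Scgb2b2 were among them. The same pattern was met by 3 probes for the control rats of day 28, 3 for the model rats of day 14 and 2 for the control rats of day 14. The 5689 tested probes whose mean level was in the range of the 4 dim genes had a median silica difference of -0.067 at day 28 and -0.031 at day 14.

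The mean of day 28 minus that of day 14, over model and control rats together, was a contrast that the choice of these genes had not used. Its p values share the arrays and the estimate of the spread with the interaction p that chose them, so they are not independent of that choice. Of the 5, 1 passed, Scgb2b2, with a measured difference of -0.66 (SE 0.13, limma adjusted p = 0.019). That value rests on the model rats of day 28, where its probe was not well above background: between days the control rats moved by 0.05, and the model rats of day 14 were at least 1.12-fold above those of day 28. No change of Scgb2b2 beyond that bound is read from it. Of all tested probes 10.5% passed, 5.56% as lower and 4.91% as higher. The adjusted p was 0.14 for LOC103694669 (0.50), 0.38 for Kcna5 (-0.20), 0.23 for Apba2 (-0.19) and 0.090 for Ifit2 (0.47), with the log2 difference in brackets. The call for Scgb2b2 was lost with slide as a block, where the adjusted p was 0.27 and no probe of the array was called although 5057 had an unadjusted p under 0.05, and with the normexp background. Of the 15 other potassium channel probes 1 passed, that of Kcnk2, at -0.70 (limma adjusted p = 0.028), against 10.5% of all tested probes. The Kcnk2 means at day 14 and day 28 were 7.97 and 8.05 in the control rats and 8.20 and 6.71 in the model rats. That value, too, thus rests on the model rats of day 28.

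Likeness between genes was measured as Pearson's r over the 12 arrays against the 1277 other named probes, and it takes in the group differences that chose them. Scgb2b2 was most like Olr1347 (0.94), the potassium channel gene Kcnb2 (0.91) and LOC501317 (0.89). Ifit2 was most like Mthfd2l, of mitochondrial folate metabolism (0.90), Dhx58 (0.86) and Tm4sf4 (0.84). Apba2 was most like LOC498152 (0.90), Acnat1 (0.89) and the caveolar coat gene Ptrf (0.88). Kcna5 was most like Dbp, a clock output gene (0.75), the spectrin gene Sptb (0.72) and LOC102547047 (0.71). LOC103694669 had no close likeness, and its highest values were 0.66 with Kcna5, 0.51 with Frem1 and 0.47 with Tchh. Among the 5, Apba2 and Scgb2b2 had an r of 0.85, and Kcna5 and Ifit2 one of -0.87.

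**Figure D4:**
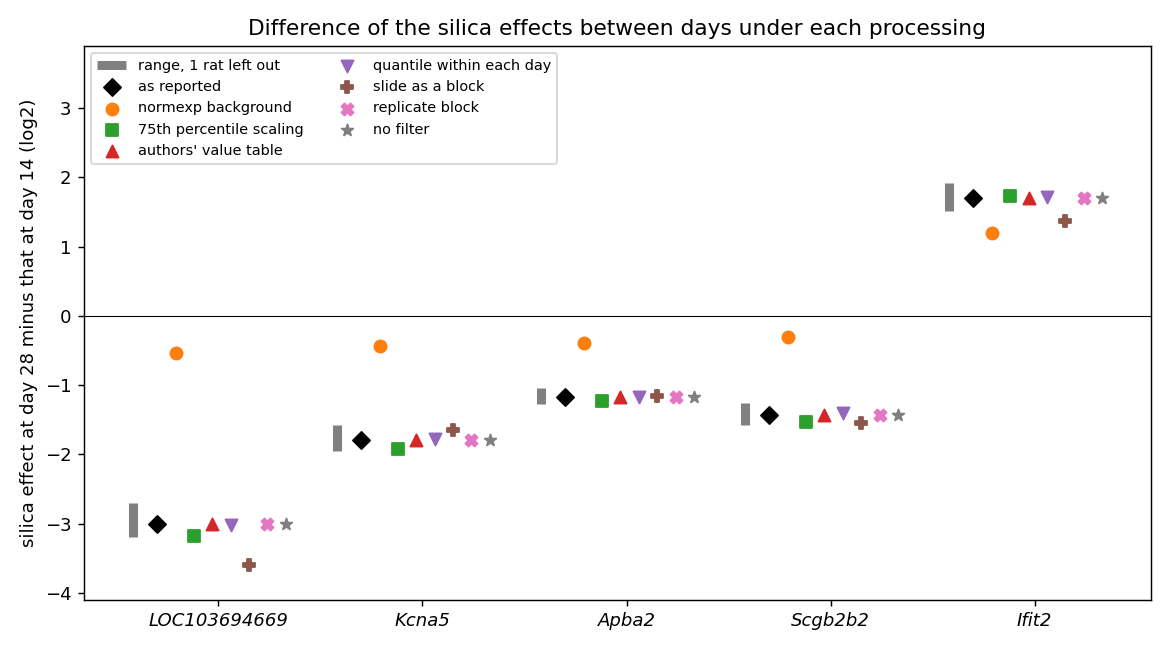
For each gene, the silica effect at day 28 minus that at day 14 (log2) is plotted as reported (black diamond) and under 7 other ways of processing, with a grey bar for the range when 1 rat was left out. No gene changes sign, and the normexp background brings Kcna5, Apba2, Scgb2b2 and LOC103694669 to between -0.54 and -0.30.

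The sign of the difference between days held for each of the 5 genes under every alternative, as the plot of settings shows, but its size did not. Because this contrast on the same arrays chose the genes, a turn of sign was unlikely in advance, and the held sign is a description only. With the normexp background it was -0.54 for LOC103694669, -0.43 for Kcna5, -0.40 for Apba2, -0.30 for Scgb2b2 and 1.20 for Ifit2, against -3.00, -1.79, -1.17, -1.43 and 1.70 as reported. That method adds an offset of 50 intensity units, and the 4 dim probes measured 3.29 to 54.7 units. With slide as a block it was -3.60 for LOC103694669 and 1.36 for Ifit2.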

How the data were processed

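Lung RNA of 12 rats was measured on 12 arrays, in 4 groups named by the labels. Per the file headers, the authors read the slides with Agilent Feature Extraction 10.7.1.1 and deposited background-corrected spot intensities. They also deposited a log2 value table (quantile normalized in GeneSpring, per the methods), which was used as an alternative only. Judged by the majority of its spots, no probe was saturated on any array, and no spot of the 5 genes was saturated.

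Control and outlier spots were left out, spots of a probe were averaged, and log2 intensities were quantile normalized over the 12 arrays. The filter kept the 34097 of 51255 probes that some group had well above background in each of its 3 rats. All 5 genes passed, Apba2, Scgb2b2, Kcna5 and LOC103694669 only through groups where they were bright. limma 3.58.1 (R 4.3.3) was fitted to the 4 groups, with Benjamini-Hochberg adjustment over all probes, and tested on simulated data. The calling thresholds were 0.05 for the adjusted p and, for silica effects only, 2 for the fold change. Differences in the text are on the log2 scale. The arrays' number, 3 in a group, limits the precision, and p-values measure only the spread between these rats.

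Gene names came from the 1279 readable rows of the study's list of 2275, and other probes stayed unnamed. Accessions of 4 of the 5 genes matched RefSeq. The probe sequence of Scgb2b2 is not reported here. The genes and lists were chosen with earlier results of these data known. Genes named are the 5, the next 3 probes by interaction p, the 3 most alike per gene, and the lists' called or largest members. Alternatives changed the background correction, scaling, value table, arrays normalized together, slide, replicate number, filter and rats. The labels' replicate numbers were not taken to pair the rats. Of 18 pairs with the same number, 2 had a correlation over 0.1, the highest 0.24, and this check cannot exclude a pairing.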

Additional observations from a re-analysis of the deposited data

How the results depend on the processing

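With the normexp background, the difference between days was -0.54 for LOC103694669, -0.43 for Kcna5, -0.40 for Apba2, -0.30 for Scgb2b2 and 1.20 for Ifit2. The day 28 minus day 14 mean of Scgb2b2 was -0.15 (adjusted p 0.078), the probes called were 1314 at day 28 in place of 3322, 732 at day 14 in place of 1924 and 1 for the interaction in place of 0, and those of the gene lists at day 14 were 13 in place of 21. With slide as a block, the difference between days was -3.60 for LOC103694669 and 1.36 for Ifit2, the day 28 minus day 14 mean was -0.79 for Scgb2b2 (adjusted p 0.27) and turned to -0.093 for LOC103694669 (adjusted p 0.91), 4 probes were called for the interaction, and 0 for day 28 against day 14 in place of 3568. That block rests at day 28 on 1 control rat, and all gene lists but that of Apba2 had fewer day 28 calls with it. Quantile normalization within each day and no filter each gave 1 interaction call. With the replicate block 1965 probes were called for day 28 against day 14, Scgb2b2 had an adjusted p of 0.040 and 0 passed for the interaction. Beyond normexp's offset and the slide term's single control rat, the cause was not tested.

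With 1 rat left out, the difference between days was -3.20 to -2.70 for LOC103694669, -1.95 to -1.57 for Kcna5, -1.27 to -1.04 for Apba2, -1.57 to -1.26 for Scgb2b2 and 1.51 to 1.92 for Ifit2. Interaction calls ranged from 0 to 269 (without control rat 1 of day 28), day 14 calls from 1111 (without model rat 1 of day 14) to 2575, day 28 against day 14 calls from 1163 (without control rat 2 of day 14) to 3668, and interaction calls in the gene lists from 0 to 2. The day 14 silica difference of Apba2 ranged from -0.187 to 0.042, turning positive without model rat 2 of day 14. The dim probes' folds are limited by their signal over background.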
